A study of Homo sapiens with 2 samples.

Results

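CD44, CD24 and 6 tetraspanin genes (CD9, CD63, CD81, CD82, CD151 and TSPAN1) were followed across the cells of 3 human ovarian cancer lines. They were selected on levels that earlier results of these data had shown to differ between groups of the cells, so the values below describe them. They were taken by gene name from the 57110 gene entries of the deposited table, in which they have 41 listed transcripts. The series pooled the established lines IGROV1, SK-OV-3 and COV504 in equal parts, with no treatment given in the labels, and profiled the pool as single cells. A nanopore PromethION library, which reads cDNA molecules along their length, gave all expression values used here. An Illumina library of the same pool gave a list of cell barcodes only, and all 2462 barcodes of the PromethION library were on it. There is 1 library on each platform, so no difference below has a replicate check or a test. Every interval is a 95% interval and covers counting error only.

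The products of these genes sit at the cell surface. CD44 is the main receptor for hyaluronan, a sugar polymer of the matrix, and its messenger RNA can include a run of variable exons that lengthen the part outside the cell. CD24 is a small, heavily glycosylated protein held in the membrane by a lipid anchor, and cells sorted for high CD44 and low CD24 have been studied as stem-like cells in breast and ovarian cancers. Tetraspanins cross the membrane 4 times and gather integrins, proteases and signalling proteins into membrane microdomains. CD9, CD63 and CD81 are the usual markers of extracellular vesicles.

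Barcodes with at least 1000 counts were sorted into classes by 9 other genes, of which none is among the 8. A barcode was ERBB2-high where ERBB2, NNMT and DHRS2 held at least 75% of the 9 genes' counts. It was RARRES2-high where RARRES2 and TMEM100 did, and FOLR1-high where FOLR1, CLDN3, DEFB1 and CXCL14 did. This gave 619 ERBB2-high, 488 RARRES2-high and 775 FOLR1-high barcodes, with median totals of 4955, 6292 and 5287 counts. Another 247 barcodes fell in no class and 333 had fewer than 1000 counts. Inside the FOLR1-high class, 263 barcodes with a CXCL14 count (CXCL14 cells) were set against 187 with DEFB1 and no CXCL14 count (DEFB1 cells). CXCL14 encodes a chemokine and DEFB1 an antimicrobial peptide. ERBB2-high barcodes were SK-OV-3-like: GRB7, MIEN1, STARD3 and PGAP3, neighbours of ERBB2 that SK-OV-3 amplifies with it, were highest there. GRB7 differed by less than 2-fold, with 29.1 CPM in FOLR1-high and 56.4 CPM in ERBB2-high barcodes. CDKN2A, which SK-OV-3 lacks, had 1 count there, but also 0 in RARRES2-high barcodes and 92 in FOLR1-high barcodes, so it does not set this class apart. Of the IGROV1 markers, FOLR1 and CLDN3 were used to define the FOLR1-high class and cannot check it. Among the others PAX8 was highest in the FOLR1-high class and CDH1 and ESRP1 in the RARRES2-high class, so those classes keep the names of their genes. The leukocyte markers CD3E and CD37 were at 0 in all 3 classes, PTPRC, CD53 and LYZ had at most 1 count in any of them, and CD68 was not analysed here. Of the 3 endothelial markers, CDH5 had 107 counts in RARRES2-high barcodes, where VWF had 3 and PECAM1 0. Of the 4 fibroblast markers, COL1A1 had 328 counts in ERBB2-high barcodes, where LUM had 8 and DCN and PDGFRB 0.

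Variable exons of CD44 are shown first, because the long reads bear directly on them. In GENCODE release 29 (GRCh38), CD44 has 9 variable exons, v2 to v10, between the constant exons that flank them. The transcript ENST00000433892 keeps v8, v9 and v10 (chr11:35208105-35208206, chr11:35209965-35210054 and chr11:35211246-35211449, plus strand), which are 102, 90 and 204 bases of coding sequence. Their sequences follow, 5′ to 3′, with no base in capitals.
CD44 v8: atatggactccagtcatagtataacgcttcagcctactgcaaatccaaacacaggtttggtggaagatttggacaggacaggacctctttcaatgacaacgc
CD44 v9: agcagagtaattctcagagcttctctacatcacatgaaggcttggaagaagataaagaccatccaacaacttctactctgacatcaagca
CD44 v10: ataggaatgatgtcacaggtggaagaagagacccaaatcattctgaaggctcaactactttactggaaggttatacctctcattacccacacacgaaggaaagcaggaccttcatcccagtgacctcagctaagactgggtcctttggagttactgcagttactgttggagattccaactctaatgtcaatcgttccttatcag

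The junctions tell the forms apart. In the 30 bases below, lower case is the end of the exon before the junction and capitals mark the start of the exon after it. The standard form joins the constant exon before v2 directly to the constant exon after v10, whereas the v8 form enters v8 from the same first exon of the pair.
CD44 standard junction: gaatccctgctaccaGAGACCAAGACACAT
CD44 v8 junction: gaatccctgctaccaATATGGACTCCAGTC
CD44 v10 junction: atcgttccttatcagGAGACCAAGACACAT

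The standard form of CD44, ENST00000263398 with 9 exons, was the leading transcript in every class. It held 94.0% of CD44 counts in ERBB2-high barcodes (interval 92.0 to 95.7%, 703 counts). It held 89.1% in RARRES2-high barcodes (86.8 to 91.2%, 810 counts) and 87.4% in FOLR1-high barcodes (83.8 to 90.3%, 426 counts). The ERBB2-high interval lay above the other two, which overlapped each other. Transcripts with v8 took 5.46% of CD44 counts in ERBB2-high barcodes (3.85 to 7.34%), 10.2% in RARRES2-high barcodes (8.24 to 12.5%) and 10.2% in FOLR1-high barcodes (7.40 to 13.4%). The v8 to v10 form ENST00000433892 alone took 2.59%, 6.30% and 6.57% in the same order.

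Deposited counts are estimates, and a read that fits several transcripts is divided among them. Among CD44 counts given whole to 1 transcript, transcripts with v8 made up 2 of 365 in ERBB2-high barcodes (0.548%, 0.0664 to 1.97%). They made up 12 of 412 in RARRES2-high barcodes (2.91%, 1.51 to 5.03%) and 19 of 280 in FOLR1-high barcodes (6.79%, 4.13 to 10.4%). ERBB2-high barcodes were again lowest, and only the FOLR1-high interval lay clear of theirs. The longest form, ENST00000428726 with v2 to v10, which the estimates put at 2.15%, 2.97% and 2.12%, had whole counts of 0, 1 and 0. ESRP1, an epithelial splicing factor known to promote use of the CD44 variable exons, had 0 counts in ERBB2-high, 31 in RARRES2-high and 4 in FOLR1-high barcodes. Its part in the exon shares was not tested.

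**Figure D1:**
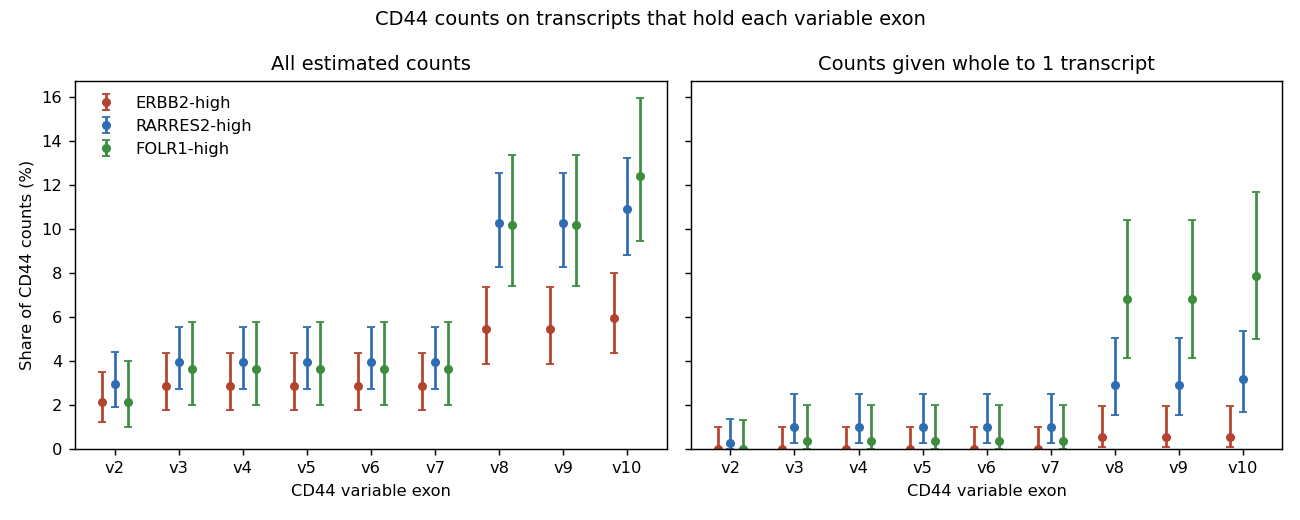
Share of CD44 counts (%) on transcripts that hold each variable exon, v2 to v10, in the 3 classes; points are shares and bars 95% Clopper-Pearson intervals. The left panel uses all estimated counts, where v8 reached 10.2% in RARRES2-high and FOLR1-high barcodes, and the right panel only counts given whole to 1 transcript, where ERBB2-high barcodes stood at 0.548%.

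CD44 (chr11:35138870-35232402, plus strand, ENSG00000026508) was high in 2 classes and lower in the third. Its level, the summed counts scaled to a group total of 1000000 (CPM), was 213 in ERBB2-high barcodes (198 to 229) and 233 in RARRES2-high barcodes (217 to 250). It was 93.2 CPM in FOLR1-high barcodes (84.5 to 102). The 2 higher classes did not differ beyond counting error, at a ratio of RARRES2-high to ERBB2-high barcodes of 1.09 (0.987 to 1.21). FOLR1-high barcodes held 2.29-fold less than ERBB2-high barcodes (2.02 to 2.59) and 2.50-fold less than RARRES2-high barcodes (2.22 to 2.82).

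CD24 (chr6:106969831-106975627, minus strand, ENSG00000272398) differed between all 3 classes. It stood at 1708 CPM in FOLR1-high barcodes (1670 to 1746), 449 CPM in ERBB2-high barcodes (427 to 473) and 45.7 CPM in RARRES2-high barcodes (38.9 to 53.4). FOLR1-high barcodes thus held 37.4-fold more CD24 than RARRES2-high barcodes (31.9 to 44.0), and ERBB2-high barcodes 9.83-fold more (8.34 to 11.7). The 159 CD24 counts of the RARRES2-high class lay in 60 of its 488 barcodes, with 26 in the highest one. At a marker share of 90% in place of 75%, the log2 ratio of RARRES2-high over FOLR1-high barcodes went from −5.22 to −6.31, and that of ERBB2-high over RARRES2-high from 3.30 to 4.41. The processed copies CD24P1, CD24P2 and CD24P4 are listed in the table with 0 counts.

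CD24 was written as almost equal parts of 2 transcripts in every group. ENST00000619133, with 3 exons, held from 52.3 to 55.6% in the 3 classes, and ENST00000606017, with 2 exons, held from 44.1 to 47.0%. Both carry the same 240 coding bases, so the protein they encode has the same length. Of the first one's estimate, only 28.1%, 28.8% and 19.1% was whole in ERBB2-high, RARRES2-high and FOLR1-high barcodes, so the split rests mostly on divided reads.

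TSPAN1 (chr1:46175087-46185958, plus strand, ENSG00000117472), a tetraspanin of epithelial cells, was high in a single class. It had 390 CPM in ERBB2-high barcodes (369 to 412), 23.3 CPM in RARRES2-high barcodes (18.5 to 29.0) and 11.8 CPM in FOLR1-high barcodes (8.87 to 15.4). The ERBB2-high level was 16.8-fold that of RARRES2-high barcodes (13.4 to 21.2) and 33.0-fold that of FOLR1-high barcodes (25.2 to 44.2). All of its counts were on ENST00000372003, the only transcript listed. This transcript starts where RefSeq places the gene's start, as does the leading transcript of CD24, and TSPAN1 is shown as the gene high in a single class. The 250 bases before its start come from the RefSeq promoter of GRCh38.p14 (chr1:46174837-46175086, plus strand).
TSPAN1 promoter: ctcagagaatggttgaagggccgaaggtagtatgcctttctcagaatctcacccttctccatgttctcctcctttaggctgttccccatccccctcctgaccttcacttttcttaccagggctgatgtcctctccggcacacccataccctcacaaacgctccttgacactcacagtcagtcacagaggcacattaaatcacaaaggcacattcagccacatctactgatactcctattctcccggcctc

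The TSPAN1 window holds 4 CpG pairs, against a median of 11 over the 35116 RefSeq promoter windows of the same length. A search of both strands found 0 copies of the GC box GGGCGG, which 42.6% of all windows hold. It also found 0 copies of TATAAA, which 10.7% hold, and 0 of CCAAT, which 32.0% hold. Of the 8 genes, 6 were matched in the promoter table used. All 6 windows had 0 copies of TATAAA and of CCAAT, and the GC box had 0 copies in CD24 as in TSPAN1, 2 in CD44, 3 in CD63, 4 in CD82 and 6 in CD9. The leading transcripts of CD44, CD63 and CD82 start 301, 211 and 72 bases upstream of the RefSeq start used. That of CD9 starts 49 bases downstream of it. The whole CD44 window and most of the CD63 window thus lie downstream of the leading transcript's start, unlike the TSPAN1 and CD24 windows. The promoters of CD81 and CD151 were not analysed here.

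CD9 (chr12:6199715-6238271, plus strand, ENSG00000010278), which takes part in cell fusion and adhesion, had another order than TSPAN1. It was highest in RARRES2-high barcodes at 329 CPM (310 to 349), followed by FOLR1-high barcodes at 161 CPM (150 to 173) and ERBB2-high barcodes at 44.9 CPM (37.9 to 52.7). RARRES2-high barcodes held 7.33-fold more than ERBB2-high barcodes (6.18 to 8.76) and 2.04-fold more than FOLR1-high barcodes (1.86 to 2.24). The latter ratio lies just inside a limit of 2-fold, and with mitochondrial genes left out of the totals its log2 value went from 1.03 to 0.97, outside it. Mitochondrial genes took 2.93% of counts in ERBB2-high, 3.11% in RARRES2-high and 7.06% in FOLR1-high barcodes.

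CD63, CD81 and CD151 shared 1 order, with ERBB2-high barcodes highest and FOLR1-high barcodes lowest, with at most 2.16-fold between them. CD63 (chr12:55725323-55729707, minus strand, ENSG00000135404), a protein of late endosomes and lysosomes, stood at 1855, 1358 and 996 CPM in ERBB2-high, RARRES2-high and FOLR1-high barcodes. CD81 (chr11:2377294-2397419, plus strand, ENSG00000110651), known also as a receptor for hepatitis C virus, stood at 340, 255 and 157 CPM. CD151 (chr11:832843-838834, plus strand, ENSG00000177697), which binds laminin-binding integrins, stood at 341, 217 and 173 CPM. The intervals of neighbouring classes did not overlap for any of the 3 genes. The ratio of ERBB2-high to FOLR1-high barcodes was 1.86 for CD63 (1.79 to 1.94), 2.16 for CD81 (1.97 to 2.38) and 1.97 for CD151 (1.80 to 2.16). Over all genes compared, the median log2 ratio ran in the same order. It was 0.21 in ERBB2-high over RARRES2-high, 0.44 in ERBB2-high over FOLR1-high and 0.19 in RARRES2-high over FOLR1-high barcodes. The order alone thus does not set these 3 genes apart.

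CD82 (chr11:44565591-44620363, plus strand, ENSG00000085117), known as a suppressor of metastasis, was scarce. It had 52 counts in RARRES2-high barcodes (15.0 CPM, 11.2 to 19.6), 10 in ERBB2-high barcodes (3.03 CPM, 1.45 to 5.57) and 8 in FOLR1-high barcodes (1.75 CPM, 0.755 to 3.45). RARRES2-high barcodes lay clear of the other classes, which did not differ beyond counting error (ratio 1.73, 0.615 to 5.05). They held 4.93-fold more than ERBB2-high barcodes (2.48 to 10.9) and 8.55-fold more than FOLR1-high barcodes (4.03 to 20.8). At a marker share of 90% the log2 ratio of ERBB2-high over RARRES2-high barcodes went from −2.30 to −1.49. At that share CD82 had fewer than 50 counts in both comparisons with RARRES2-high barcodes, so neither difference was called.

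**Figure D2:**
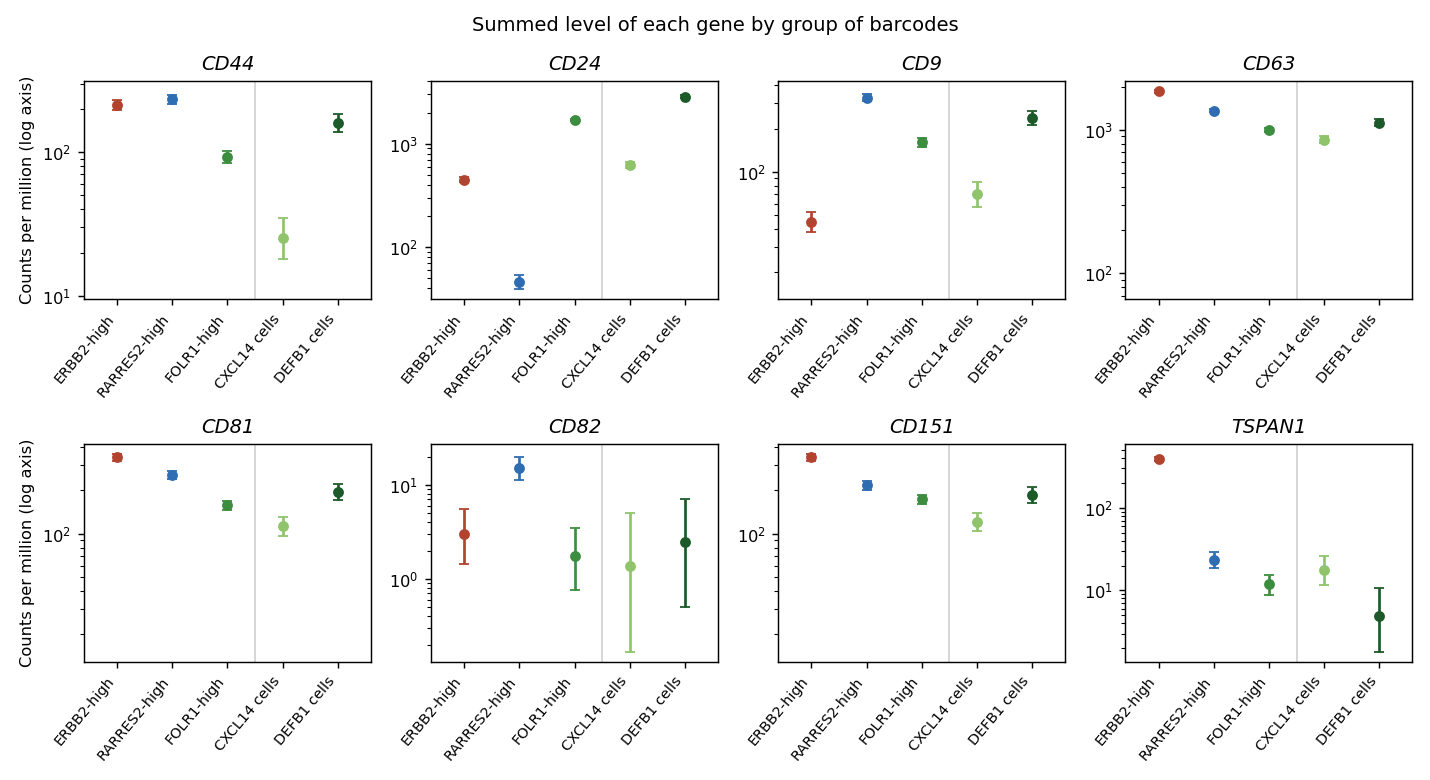
Summed level (CPM, log axis) of each gene in ERBB2-high, RARRES2-high and FOLR1-high barcodes and, right of the line, in the CXCL14 and DEFB1 cells of the FOLR1-high class; bars are 95% Poisson intervals. TSPAN1 lies at 390 CPM in ERBB2-high and 11.8 in FOLR1-high barcodes, and CD44 at 161 in DEFB1 and 25.5 in CXCL14 cells.

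The counts of genes past 2-fold were set beside the share of all genes that passed it. Genes with at least 50 counts over both groups were compared. Between ERBB2-high and RARRES2-high barcodes, 2 of the 8 genes were higher in the first (CD24 and TSPAN1) and 2 lower (CD9 and CD82), and 34.2% of 9124 genes passed 2-fold either way (21.0% higher and 13.2% lower). Between ERBB2-high and FOLR1-high barcodes, 3 of 7 were higher (CD44, CD81 and TSPAN1) and 2 lower (CD24 and CD9), against 35.0% of 9206 genes (25.7% higher and 9.33% lower). Between RARRES2-high and FOLR1-high barcodes, 3 of 8 were higher (CD44, CD9 and CD82) and 1 lower (CD24), against 34.6% of 9152 genes (21.8% higher and 12.9% lower). These genes were picked with such differences already known, so the counts describe them and do not set them apart. Just outside the limit lay CD151 in ERBB2-high over FOLR1-high barcodes and TSPAN1 in RARRES2-high over FOLR1-high barcodes, both at a ratio of 1.97.

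Within the FOLR1-high class, CD44, CD24 and CD9 were all lower in CXCL14 cells than in DEFB1 cells. CD44 was at 25.5 CPM in CXCL14 cells (17.9 to 35.1) and 161 CPM in DEFB1 cells (139 to 185), 6.31-fold lower (4.42 to 9.23). CD24 was at 621 CPM (581 to 663) against 2861 CPM (2767 to 2958), 4.61-fold lower (4.28 to 4.96). CD9 was at 69.5 CPM (56.6 to 84.4) against 236 CPM (210 to 265), 3.40-fold lower (2.70 to 4.31). These made 0 genes higher and 3 lower of the 6 compared, and of 5252 genes 8.99% passed 2-fold either way (3.20% higher and 5.79% lower in CXCL14 cells). The 37 CD44 counts of the CXCL14 cells lay in 18 of 263 barcodes, with 10 in 1 barcode. With each barcode given equal weight, the log2 ratio of CD44 went from −2.66 to −3.50.

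CD63, CD81 and CD151 were also lower in CXCL14 cells, by less than 2-fold. DEFB1 cells held 1.31-fold more CD63 (1.22 to 1.42), 1.73-fold more CD81 (1.41 to 2.12) and 1.54-fold more CD151 (1.26 to 1.89). TSPAN1 had too few counts to be compared, 26 in CXCL14 cells and 6 in DEFB1 cells, as had CD82 with 2 and 3. The median total was 4972 counts in CXCL14 cells and 5931 in DEFB1 cells, and mitochondrial genes took 7.28% and 6.71%. FOLR1 and CLDN3, which the class rule used, stood at 594 and 279 CPM in CXCL14 cells and at 619 and 398 CPM in DEFB1 cells. The 325 FOLR1-high barcodes with neither gene lay between the 2 groups for CD44 (101 CPM), CD24 (1795 CPM), CD9 (182 CPM), CD63 (1027 CPM) and CD81 (167 CPM). For CD151 they stood at 204 CPM (184 to 225), above DEFB1 cells at 187 CPM (163 to 213), with intervals that overlap.

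**Figure D3:**
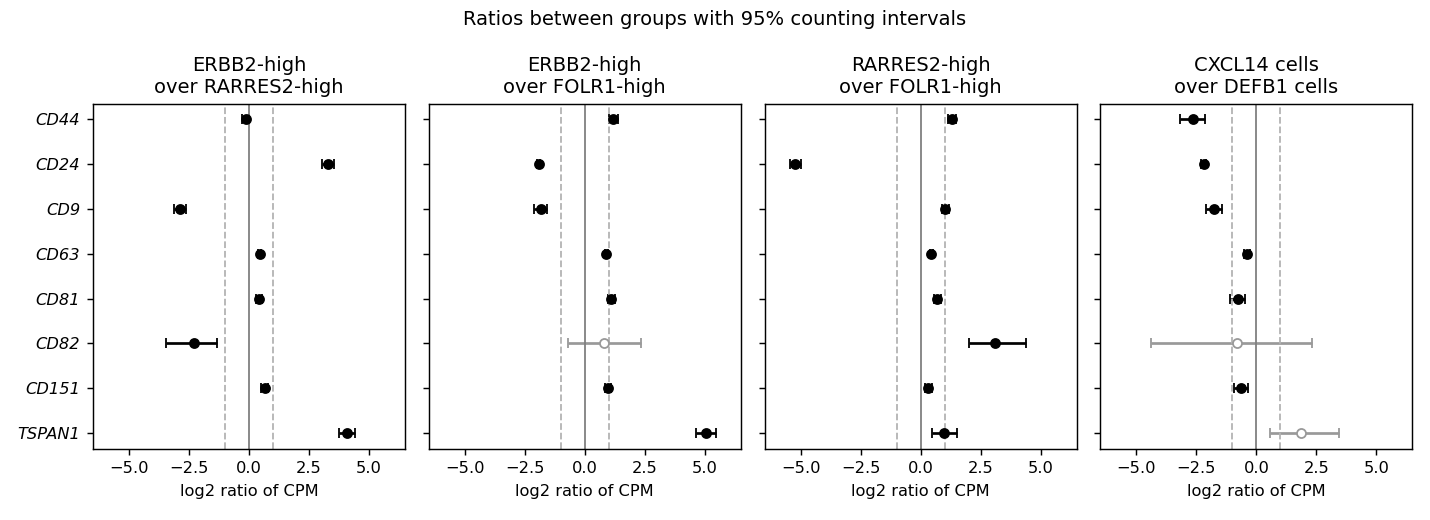
Log2 ratio of CPM between the named groups for each gene, with 95% exact conditional binomial intervals; dashed lines mark 2-fold and open grey points have fewer than 50 counts over both groups. CD24 lies at 3.30 in ERBB2-high over RARRES2-high barcodes and at −5.22 in RARRES2-high over FOLR1-high barcodes, and CD44, CD24 and CD9 lie left of the 2-fold line in the CXCL14 panel.

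FOLR1-high barcodes were also binned by their CXCL14 count. CD44 stood at 125 CPM in the 512 FOLR1-high barcodes with no CXCL14 count (113 to 138) and at 69.0 CPM in the 43 with a single count (39.5 to 112). It stood at 24.5 CPM in the 55 with 2 to 4 counts (9.85 to 50.5), 15.2 CPM in the 124 with 5 to 19 (7.29 to 28.0) and 14.4 CPM in the 41 with 20 or more (3.92 to 36.8). The last 3 bins rest on 7, 10 and 4 CD44 counts, and their intervals overlap.

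CD24 followed the same order, with 2214, 1049, 613, 570 and 395 CPM over the 5 bins. CD9 was highest in the first bin, with 204, 86.3, 56.0, 62.3 and 86.3 CPM. CD63 differed least of the 6 genes plotted, from 1063 to 816 CPM. TSPAN1 had 28, 2, 4, 8 and 12 counts over the same bins, too few to be compared. Median totals of the bins ran from 4408 to 6260 counts, and their part in these values was not tested.

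**Figure D4:**
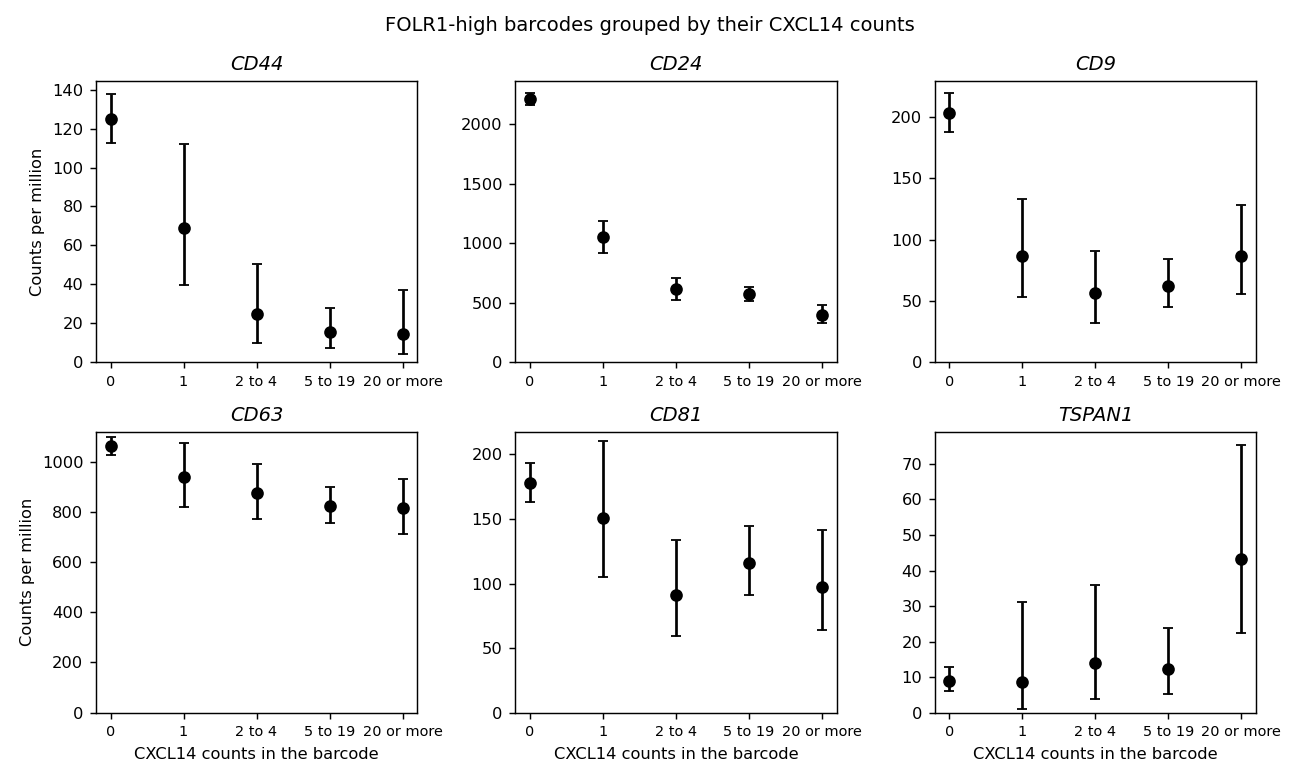
Level (CPM) of 6 of the genes in FOLR1-high barcodes binned by their CXCL14 count; bars are 95% Poisson intervals, and bins hold 512, 43, 55, 124 and 41 barcodes. CD44 goes from 125 to 14.4 CPM and CD24 from 2214 to 395 CPM between the first bin and the last.

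Detection per barcode was compared after each barcode was thinned to 2000 counts, because the classes differ in depth. CD24 was then seen in 73.3% of FOLR1-high, 46.5% of ERBB2-high and 5.03% of RARRES2-high barcodes. TSPAN1 was seen in 50.9% of ERBB2-high barcodes, 4.16% of RARRES2-high and 2.02% of FOLR1-high barcodes. CD9 was seen in 44.6% of RARRES2-high, 24.0% of FOLR1-high and 7.92% of ERBB2-high barcodes. CD63 was seen in 94.8%, 92.3% and 82.9% of ERBB2-high, RARRES2-high and FOLR1-high barcodes. Without thinning, CD24 was seen in 83.4%, 70.8% and 12.3% of FOLR1-high, ERBB2-high and RARRES2-high barcodes.

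Free RNA can give a barcode counts of a gene its cell does not express. CDKN2A, which SK-OV-3 lacks, was seen in 0 of 581 thinned ERBB2-high barcodes (up to 0.633%), in 0 of 457 RARRES2-high barcodes (up to 0.804%) and in 3.24% of FOLR1-high barcodes, where it was itself scarce. The lowest class level was 2.68% of the highest for CD24 and 3.03% for TSPAN1, and 6.56% for the ERBB2 neighbour STARD3. How much free RNA or mixed barcodes add to the lowest levels was not tested.

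CD44 and CD24 were seen together in different shares of the classes. In RARRES2-high barcodes 36.3% had CD44 only (31.9 to 40.9%), 1.31% had both genes and 3.72% had CD24 only. In FOLR1-high barcodes the order was turned, with 0.675% CD44 only (0.219 to 1.57%), 14.4% both and 58.8% CD24 only. ERBB2-high barcodes were mixed, with 18.6% CD44 only (15.5 to 22.0%), 16.2% both and 30.3% CD24 only. The product of the separate shares of CD44 and CD24 was 16.2% there, 1.89% in RARRES2-high barcodes and 11.1% in FOLR1-high barcodes.

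The 2 groups of the FOLR1-high class differed in barcodes with both genes, with CD24 only and with neither. Both genes were seen in 27.3% of DEFB1 cells (21.0 to 34.4%) and in 2.40% of CXCL14 cells (0.886 to 5.15%). The product of the separate shares was 26.7% in DEFB1 cells and 1.46% in CXCL14 cells, inside both intervals. CD24 without CD44 was seen in 68.3% of DEFB1 cells and 43.2% of CXCL14 cells, and CD44 without CD24 in 0.546% and 0.80%. Neither gene was seen in 3.83% of DEFB1 cells (1.55 to 7.72%) and in 53.6% of CXCL14 cells (47.2 to 59.9%). A gene not seen at this depth is not shown to be absent from the cell.

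**Figure D5:**
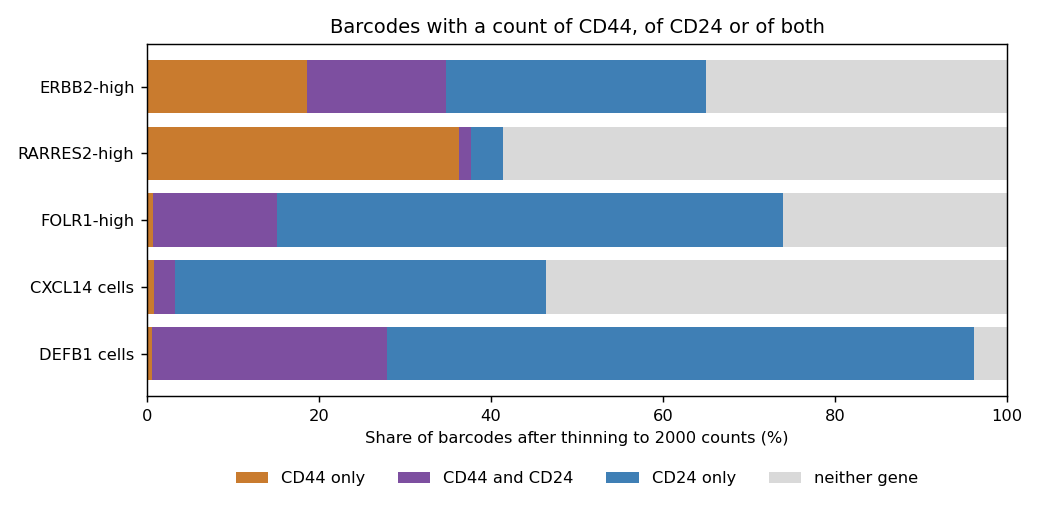
Share of barcodes (%) with a count of CD44 only, of both genes, of CD24 only or of neither, after thinning to 2000 counts, in 581 ERBB2-high, 457 RARRES2-high, 741 FOLR1-high, 250 CXCL14 and 183 DEFB1 barcodes. CD44 without CD24 makes up 36.3% of RARRES2-high barcodes and 0.675% of FOLR1-high barcodes.

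Of the 8 genes, 0 differed in the share of a transcript by 20 percentage points in the 4 comparisons. Among all genes with 2 or more transcripts and at least 50 counts in both groups, such a difference was reached by 2.41%, 2.16%, 3.24% and 0.691%, in the order ERBB2-high over RARRES2-high, ERBB2-high over FOLR1-high, RARRES2-high over FOLR1-high and CXCL14 cells over DEFB1 cells. CD82 and TSPAN1 were each seen as 1 transcript, so no split could be compared. CD44 was not compared between CXCL14 and DEFB1 cells, since the first held 37 counts.

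The largest difference was in CD151. ENST00000322008 held 33.4% of CD151 counts in CXCL14 cells (26.6 to 41.0%) and 49.2% in DEFB1 cells (42.7 to 56.0%), a difference of −15.8 points. It differs from ENST00000397421 by an untranslated exon of 62 bases (chr11:834530-834591), and both carry the same 759 coding bases. Transcripts that end an exon there held 54.4% in CXCL14 cells and 65.0% in DEFB1 cells. Among whole counts the values were 53.7% (29 of 54) and 56.5% (26 of 46), with intervals that overlap. In the 3 classes they held 57.0%, 52.2% and 60.0% of CD151 counts in ERBB2-high, RARRES2-high and FOLR1-high barcodes.

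The leading CD9 transcript, ENST00000009180, held 85.5% of counts in ERBB2-high barcodes (79.1 to 91.0%), 92.6% in RARRES2-high barcodes (90.9 to 94.0%) and 93.3% in FOLR1-high barcodes (91.29 to 95.03%). It held 84.8% in CXCL14 cells and 94.6% in DEFB1 cells, so its share was lowest in the 2 groups with the least CD9. For CD81 the shorter coding form ENST00000526072, with 495 coding bases against 708, held 13.0% in CXCL14 cells (8.10 to 18.9%) and 4.85% in DEFB1 cells (2.62 to 8.61%). These 2 intervals overlap. Shares among whole counts are not given here for CD9 or CD81, so their differences rest on the estimates. CD63 was mostly ENST00000257857, at 90.8%, 88.2% and 92.0% in ERBB2-high, RARRES2-high and FOLR1-high barcodes. Its second transcript, ENST00000552692, has the same 714 coding bases and held 10.4% in RARRES2-high barcodes (9.50 to 11.3%) and 6.77% in FOLR1-high barcodes (6.05 to 7.53%).

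Other tetraspanins, a list of 22 genes, had 5 to 12 members with enough counts to be compared. Between ERBB2-high and RARRES2-high barcodes 3 of 12 compared were higher (TSPAN5, TSPAN15 and TSPAN31) and 2 lower (UPK1B and TSPAN12), with a median log2 ratio of 0.05 against 0.21 for all genes. UPK1B, a uroplakin of urothelium, had 0 counts in ERBB2-high and 88 in RARRES2-high barcodes. In ERBB2-high over FOLR1-high barcodes 2 of 11 were higher and 1 lower (median 0.44 against 0.44), and in RARRES2-high over FOLR1-high barcodes 4 of 11 were higher and 0 lower (median 0.50 against 0.19). In CXCL14 cells TSPAN12 and TSPAN3 were higher than in DEFB1 cells, 2 of 5 compared, with 0 lower (median 0.47 against −0.05), where 3.20% of all genes were higher and 5.79% lower. Of all genes, 34.2%, 35.0% and 34.6% passed either way in the 3 class comparisons. TSPAN12, a coreceptor in norrin signalling, stood at 36.5 CPM in CXCL14 and 17.1 CPM in DEFB1 cells.

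Known partners of tetraspanins, a list of 18 genes, included the integrins that CD151 binds. ITGA3 stood at 238 CPM in ERBB2-high, 308 CPM in RARRES2-high and 28.7 CPM in FOLR1-high barcodes. ITGA6 stood at 129, 133 and 21.9 CPM in that order. Past 2-fold were 2 higher and 4 lower of 16 in ERBB2-high over RARRES2-high barcodes (median −0.35 against 0.21 for all genes), 5 higher and 4 lower of 16 in ERBB2-high over FOLR1-high barcodes (median 0.43 against 0.44), and 6 higher and 2 lower of 17 in RARRES2-high over FOLR1-high barcodes (median 0.65 against 0.19). The shares of all genes were 21.0% higher and 13.2% lower, 25.7% and 9.33%, and 21.8% and 12.9% in the same order. In CXCL14 cells 0 of 12 were higher and 4 lower, against 3.20% and 5.79% of all genes, with a median of −0.61 against −0.05. Those 4 were ITGB4, which pairs with ITGA6, EPCAM, an epithelial adhesion protein that binds CD9, and the interferon-induced IFITM1 and IFITM3. ITGB4 stood at 9.63 CPM in CXCL14 cells and 112 CPM in DEFB1 cells, and EPCAM at 17.2 and 154 CPM.

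Hyaluronan enzymes and CD44 partners, a list of 24 genes, included a secreted ligand with a wide range. SPP1, which encodes osteopontin, a CD44 ligand, stood at 542 CPM in ERBB2-high, 102 CPM in RARRES2-high and 2312 CPM in FOLR1-high barcodes. It was the only one of 9 compared that passed 2-fold between CXCL14 cells, at 261 CPM, and DEFB1 cells, at 3954 CPM, where 5.79% of all genes were lower and 3.20% higher. EZR, which encodes ezrin and links CD44 to actin, stood at 522, 743 and 222 CPM in ERBB2-high, RARRES2-high and FOLR1-high barcodes. In the same list 3 of 11 were higher and 2 lower in ERBB2-high over RARRES2-high barcodes, 5 and 3 of 12 in ERBB2-high over FOLR1-high barcodes, and 6 and 1 of 12 in RARRES2-high over FOLR1-high barcodes. Of all genes, 34.2%, 35.0% and 34.6% passed either way in these comparisons. The medians were −0.51, 0.86 and 1.07, and −0.20 in CXCL14 over DEFB1 cells, against 0.21, 0.44, 0.19 and −0.05 for all genes.

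Splicing factors known to act on CD44, a list of 15 genes, are given beside the shares of all genes past 2-fold either way (34.2%, 35.0%, 34.6% and 8.99% over the 4 comparisons). Past 2-fold were 2 higher (QKI and RBFOX2) and 1 lower (SND1) of 12 in ERBB2-high over RARRES2-high barcodes. In ERBB2-high over FOLR1-high barcodes 1 was higher (QKI) and 1 lower (SND1), and in RARRES2-high over FOLR1-high barcodes 0 were higher and 1 lower (HNRNPA1). Of 12, 0 passed 2-fold between CXCL14 and DEFB1 cells. The medians over the 4 comparisons were 0.25, 0.56, 0.39 and 0.00, against 0.21, 0.44, 0.19 and −0.05 for all genes. ESRP1 had too few counts to enter these comparisons.

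Genes with the most similar profile were named for CD44, CD24 and CD9 among 2674 genes, by the distance between centred log2(CPM + 1) profiles over 4 groups (ERBB2-high, RARRES2-high, CXCL14 and DEFB1). Among the nearest to CD44 were HTATIP2, at a distance of 0.39, and DSG2, a desmosomal cadherin, at 0.62. The nearest to CD24 were PDZK1IP1 at 1.16, the protease MMP7 at 1.26 and GSTM3 at 1.37. The nearest to CD9 were SFN at 0.60, ANXA3 at 0.83 and LGALS3BP at 0.93. All 4 groups come from 1 library, so such likeness has no replicate behind it.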

How the data were processed

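The deposited matrix holds estimated counts per transcript and barcode that the authors made from nanopore reads, and the series' design text names Isosceles. The submitters' processing notes name Cell Ranger 6.0.1 and GRCh38. Aligner, read filters and any collapsing of molecular identifiers were not given in the sources used here. These raw estimates totalled 13052893 counts, from 1 to 25670 per barcode (median 4914.5). Transcript counts were summed per gene entry and, for intervals and thinning, rounded to whole numbers. Every sum per gene and barcode was whole within 1e-06.

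Counts were summed over the barcodes of a group and scaled to CPM. The intervals are exact Poisson for CPM, exact conditional binomial for ratios and Clopper-Pearson for shares. A gene was compared with at least 50 counts over both groups, and called at 2-fold. A transcript share was called at 20 points with at least 50 counts in both groups. Zero counts were set to a floor of 3 counts in ratios. Thinning drew 2000 counts per barcode without replacement and left out shallower barcodes: 38 ERBB2-high, 31 RARRES2-high, 34 FOLR1-high, 13 CXCL14 and 4 DEFB1. Doublets were left in, since the marker rule limits mixed barcodes, and were removed with Scrublet (scanpy 1.11.5, expected rate 0.02) as an alternative. The steps were tested on simulated data. With 1 library a group, no test was made.

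The 8 genes, the lists and the classes were chosen with earlier results of these data known. The genes named as similar were the 3 nearest with at least 500 counts over the 4 groups, of which 1 is not reported here. Promoters are from RefSeq (GRCh38.p14) and exons from GENCODE release 29. Alternatives were other marker shares, minimum totals, marker counts, weights, denominators, doublet removal and call limits. After seeing the data, 2 more were added: at least 3 CXCL14 counts, and leaving out barcodes over 20% mitochondrial counts.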

Additional observations from a re-analysis of the deposited data

Results flagged for a closer look

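Levels of the genes were also present in barcodes that entered no comparison, above the limit that a count of 0 allows (3 counts, 1.88 CPM in the 247 barcodes of no class and 27.2 CPM in the 333 barcodes with under 1000 counts). The barcodes of no class had 184 CPM of CD44, 409 CPM of CD24, 272 CPM of CD9, 1487 CPM of CD63, 259 CPM of CD81, 9.41 CPM of CD82, 274 CPM of CD151 and 130 CPM of TSPAN1. Each of these lies between the highest and the lowest class level of its gene. The barcodes with under 1000 counts, 27.4% of whose counts were mitochondrial, had 136 CPM of CD44, 326 CPM of CD24, 208 CPM of CD9, 1214 CPM of CD63, 226 CPM of CD81, 99.6 CPM of CD151 and 81.5 CPM of TSPAN1. Their CD151 level rests on 11 counts (49.7 to 178 CPM) and lies below all 3 class levels. With 1 library a group, no group of samples could be checked for a sample that stands apart.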

How the results depend on the processing

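No paired analysis was possible because only 1 library stands behind every group. The 29 log2 ratios were recomputed to give 209 values, of which 15 left the counting interval. No ratio that had passed 2-fold changed its sign. The counts of genes past 2-fold and of transcript shares were recomputed 42 times, and 2 moved by over 1.5 times. At a limit of 1.5-fold, 5 genes in place of 3 passed in CXCL14 over DEFB1 cells. At a limit of 10 points, 1 gene in place of 0 (CD151) passed for transcript shares. CD151 in ERBB2-high over FOLR1-high barcodes moved past 2-fold at a marker share of 90% (log2 1.00), with at least 5 marker counts (1.03) and as a mean over barcodes (1.01). TSPAN1 in RARRES2-high over FOLR1-high barcodes did so with at least 2000 counts per barcode (1.03) and without the 77 barcodes called doublets (1.08). CD9 in RARRES2-high over FOLR1-high barcodes fell short of 2-fold without mitochondrial genes in the totals (0.97). At a marker share of 90% CD82 had too few counts to be compared, which took the count of genes past 2-fold from 4 to 3 in ERBB2-high over RARRES2-high and in RARRES2-high over FOLR1-high barcodes. Without those doublets CD24 in RARRES2-high over FOLR1-high barcodes went from −5.22 to −5.76, and with at least 3 CXCL14 counts CD44 in CXCL14 over DEFB1 cells went from −2.66 to −3.20. The cause of these shifts was not tested. Depth limits CD82, the CD44 transcripts of CXCL14 cells and TSPAN1 inside the FOLR1-high class, which rest on 52 counts or fewer per group.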

Other observations

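Other markers used to sort tumour cells, a list of 13 genes of which ALDH1A1 encodes a cytosolic enzyme, are given beside the share of all genes past 2-fold. In RARRES2-high over FOLR1-high barcodes 6 of 10 compared were higher and 1 (ALDH1A1) lower, against 21.8% and 12.9% of all genes, with a median log2 ratio of 4.71 against 0.19 for all genes. NT5E, which encodes the ecto-enzyme CD73, had 670 counts in RARRES2-high (193 CPM), 194 in ERBB2-high (58.8 CPM) and 5 in FOLR1-high barcodes. THY1, a mesenchymal surface marker, had 206, 4 and 1 counts in the same order, and ENG, the coreceptor endoglin, had 125, 0 and 2. ALDH1A1, an aldehyde dehydrogenase used as a stem cell marker, had 1026 counts in FOLR1-high (224 CPM), 38 in RARRES2-high and 3 in ERBB2-high barcodes.

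In ERBB2-high over RARRES2-high barcodes 2 of 8 of this list were higher (CD47 and ALCAM) and 6 lower, against 21.0% and 13.2% of all genes (median −1.65 against 0.21), and in ERBB2-high over FOLR1-high barcodes 3 of 6 were higher and 2 lower, against 25.7% and 9.33% (median 1.07 against 0.44). In CXCL14 over DEFB1 cells 2 of 4 were higher and 1 lower, against 3.20% and 5.79% (median 0.62 against −0.05). CD47, which signals to macrophages, stood at 62.6 CPM in CXCL14 and 22.0 CPM in DEFB1 cells, and ALCAM, an adhesion protein, at 217 and 88.9 CPM. EPCAM, the lower one, is also in the list of tetraspanin partners. PLAUR is shared with the list of CD44 partners. Each list was chosen with earlier results of these data known.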
